A study of Homo sapiens with 6 samples.

Results

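The AP-1 and immediate early genes FOS, FOSL1, FOSL2, JUN, JUNB, JUND, ATF3, EGR1 and IER3 were followed in 6 RNA-seq libraries of a human melanoma line and its drug-resistant derivatives. They were chosen by name and found by Ensembl ID, 9 genes of the 60617 gene IDs listed, and all 9 passed the filter on low values that kept 16555 genes for testing. The libraries came as 2 of PBRT16 cells kept in 500 nM PLX8394, 2 of PBRT15 cells kept in 500 nM PLX8394 and 2 of 1205LuTR parental cells given DMSO, the solvent. 1205Lu is a melanoma line with an activating BRAF mutation, and 1205LuTR cells carry a GAL4-ELK1 reporter of ERK pathway activity. PLX8394 is a BRAF inhibitor of the class called paradox breakers, and the PBRT lines (paradox breaker resistant tumor) were established from tumors grown in animals. Each resistant line was measured only in drug and the parental cells only in DMSO, so line and drug cannot be told apart. The labels do not tell whether libraries of 1 group were grown apart, and the p-values therefore reflect the scatter of these libraries alone, which may be technical.

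AP-1 is a dimeric transcription factor made of a JUN protein with a FOS or ATF protein, and its makeup sets which genes it can activate or restrain. Immediate early genes are transcribed within minutes of a stimulus without new protein synthesis. Many of them respond to ERK, the kinase downstream of BRAF, through SRF and ternary complex factors such as ELK1 bound at CArG boxes, and their transcripts are short-lived. In melanoma, high AP-1 activity, FOSL1 in particular, is associated with dedifferentiated and invasive states.

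The promoters of EGR1, FOS, JUNB and JUND are shown first, since the results below turn on how these genes vary. All were higher in library 2 than in library 1 of both PBRT lines. JUND differed least of them, by 0.13 in PBRT16 and 0.96 in PBRT15 on the log2 scale. RefSeq windows of GRCh38.p14 were taken as the 250 bases before the annotated start of EGR1 (chr5:138465229-138465478, plus strand), FOS (chr14:75278578-75278827, plus strand), JUNB (chr19:12791236-12791485, plus strand) and JUND (chr19:18281623-18281872, minus strand), all written 5′ to 3′. Capitals mark 5 motifs searched on both strands: the CArG box, the AP-1 site TGANTCA, the cAMP response element TGACGTCA, the EGR site GCGNGGGCG and the ETS site CCGGAAGT.
EGR1: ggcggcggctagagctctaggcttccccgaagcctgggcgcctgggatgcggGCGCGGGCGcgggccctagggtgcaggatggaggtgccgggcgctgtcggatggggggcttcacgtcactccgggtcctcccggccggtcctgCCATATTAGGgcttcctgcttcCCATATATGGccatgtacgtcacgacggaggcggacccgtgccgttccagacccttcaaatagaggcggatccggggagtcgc
FOS: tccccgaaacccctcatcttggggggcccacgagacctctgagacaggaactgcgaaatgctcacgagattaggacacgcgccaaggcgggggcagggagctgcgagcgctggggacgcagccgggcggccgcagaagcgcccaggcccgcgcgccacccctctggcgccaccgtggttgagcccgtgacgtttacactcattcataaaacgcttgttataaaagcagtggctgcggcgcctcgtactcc
JUNB: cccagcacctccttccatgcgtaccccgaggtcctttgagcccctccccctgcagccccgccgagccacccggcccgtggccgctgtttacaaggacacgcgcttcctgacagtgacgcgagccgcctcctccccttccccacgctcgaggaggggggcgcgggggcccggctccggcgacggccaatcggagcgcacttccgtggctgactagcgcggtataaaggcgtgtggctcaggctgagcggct
JUND: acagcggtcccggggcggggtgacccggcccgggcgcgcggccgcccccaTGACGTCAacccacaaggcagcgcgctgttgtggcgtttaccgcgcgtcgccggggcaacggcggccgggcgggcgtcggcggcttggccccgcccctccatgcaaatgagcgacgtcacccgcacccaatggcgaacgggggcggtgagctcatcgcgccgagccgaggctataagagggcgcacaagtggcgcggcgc
EGR1 held a pair of CArG boxes, CCATATTAGG at bases -105 to -96 and CCATATATGG at bases -83 to -74, a motif found in 1.16% of 35116 promoter windows of this length. It also held 1 EGR site at bases -198 to -190, against 8.42% of all windows with that motif. JUND held 1 cAMP response element at bases -200 to -193, against 1.65% of all windows. The FOS and JUNB windows held no exact match to the 5 motifs. Near matches and bases further than 250 upstream were not searched, so these promoters are not shown to lack the motifs. Over the 8 windows of AP-1 and immediate early genes searched, with ATF3 having more than 1 and FOSL1 and IER3 not searched, no window held the AP-1 site (6.57% of all windows) or the ETS site (3.42%). These are matches of letters and not evidence of binding.

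The libraries were on 1 scale, with summed normalized values of 27877963 to 29580752 and median-of-ratios factors of 1.0004 to 1.0132. Libraries 1 and 2 of each PBRT line stood apart in immediate early genes, and the values of both are therefore given for each of the 9 genes. For some other named genes only the call or the fold change is given. SOX10, the lineage factor of melanocytes, had 1.49 and 0.778 normalized units in PBRT16 and 0 and 0.791 in PBRT15, against 4360 and 4103 in parental cells. Melanocytic markers were called lower for 6 of 9 tested genes in each line and higher for 1, MITF, and the summed level of all 12 listed was 2262 and 2233 in PBRT16 and 904 and 1049 in PBRT15, against 37335 and 32145 in parental cells. TYR was listed at 0 in all 6 libraries. Beside these and the marker counts that follow, 21.1% of all tested genes were called higher and 19% lower in PBRT16. In PBRT15 the shares of all tested genes were 21.6% and 19.5%. Fibroblast markers were called higher for 3 and lower for 2 of 7 tested genes in PBRT16 and higher for 7 of 7 in PBRT15. Their sum over 9 listed genes was 18777 and 25097 in PBRT16 and 136361 and 146724 in PBRT15, against 6947 and 6025 in parental cells. Of 7 immune markers 1 could be tested, the macrophage marker CD68, which was called higher in both lines, with 2146 and 3118 in PBRT16 and 2722 and 2194 in PBRT15, against 819 and 1260 in parental cells (limma adjusted p of 0.0229 in PBRT16 and 0.0273 in PBRT15). CD3E was listed at 0 throughout and PTPRC, the pan-leukocyte marker, did not exceed 2.72. Of 5 endothelial markers 3 were tested, with 0 called in PBRT16 and, in PBRT15, 1 higher (TEK, 242 and 215 in PBRT15, against 1.002 and 6.79 in parental cells) and 2 lower. The part of these marker changes in the results below was not tested, and with bulk RNA fewer cells of a type and less RNA per cell cannot be told apart.

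Against parental cells, FOSL2 and JUNB were higher in both resistant lines, and in PBRT16 JUN was also called higher and FOSL1 and IER3 lower. FOS, JUND, ATF3 and EGR1 passed the test in neither line. A gene was called at an adjusted p of at most 0.05 in limma, with Benjamini-Hochberg adjustment over all 16555 genes. In PBRT16, 3 of the 9 genes were called higher and 2 lower, where 21.1% and 19% of all tested genes were (40.1% in either direction). In PBRT15, 2 were called higher and 0 lower, where the shares of all genes were 21.6% and 19.5% (41.1% in either direction). With the fold of at least 2 that the study also asked for, 3 genes were higher and 1 lower in PBRT16 (13.1% and 9.95% of all genes), and 2 higher and 0 lower in PBRT15 (13.8% and 9.85%). At an unadjusted limma p of at most 0.05, 1 gene was lower in PBRT15, IER3 (0.0362), and FOS (0.0281) and JUN (0.0282) were higher beside the 2 called. The median log2 fold change of the 9 genes was 0.75 in PBRT16 and 1.24 in PBRT15, beside -0.0021 and -0.0057 for all tested genes. Libraries of PBRT16 and parental cells did not overlap for 8 of the 9 genes, and those of PBRT15 and parental cells for 6 of 9, but 76.1% and 74.9% of all tested genes showed no overlap either. The lines share the parental libraries, so these comparisons are not independent.

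**Figure D1:**
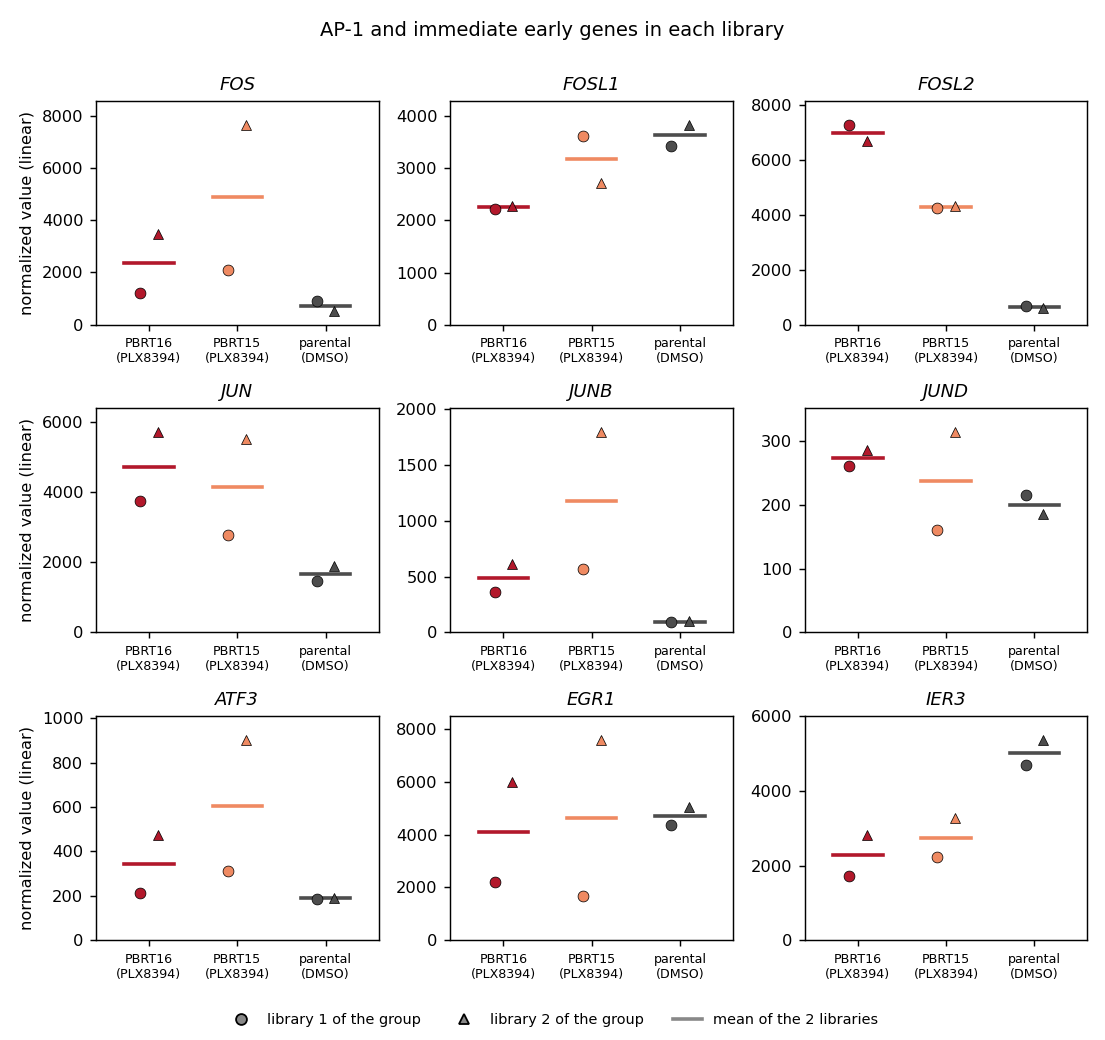
Normalized values (linear axes from 0) of the 9 genes in each library of PBRT16, PBRT15 and parental cells. Circles are library 1, triangles library 2 and bars the mean of the 2 libraries. FOSL2 lay between 4231 and 7277 in all PBRT libraries, above 619 and 679 in parental cells, while the 2 libraries of a PBRT line differed widely for FOS and EGR1.

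FOSL2 (ENSG00000075426, chr2:28392448-28417317, plus strand, GRCh38) encodes FRA2, a FOS-family partner of JUN proteins without the strong activation domain of FOS. Its normalized value was 7277 and 6666 in PBRT16 and 4231 and 4331 in PBRT15, against 679 and 619 in parental cells. All 4 PBRT libraries were far above both parental libraries, and the libraries of each group lay close together. The log2 fold change was 3.42 ± 0.12 (SE) in PBRT16, 10.7-fold, with a limma adjusted p of 0.000144. In PBRT15 it was 2.72 ± 0.12 (SE), 6.60-fold, with an adjusted p of 0.000261. Both calls held in each of 17 alternative settings, with log2 fold changes of 3.36 to 3.49 in PBRT16 and 2.64 to 2.79 in PBRT15. FOSL2 overlaps the antisense gene FOSL2-AS1 and a lncRNA on its own strand, neither of which exceeded 7.19 in any library.

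FOSL2 was also the 1 gene of the 9 called between the resistant lines, where 7.5% of all tested genes were called higher in PBRT16 and 8.28% lower (15.8% in either direction). It was 1.63-fold higher in PBRT16 than in PBRT15, a log2 difference of 0.70 ± 0.12 (SE, limma adjusted p of 0.0260), and so below the 2-fold threshold used in the study, which 4.49% of all genes passed higher and 4.77% lower. That call was lost without PBRT16 library 1 (adjusted p of 0.116) or 2 (0.0890), PBRT15 library 1 (0.101) or 2 (0.0845), or parental library 2 (0.0501), with differences of 0.64 to 0.77 throughout. Libraries of the lines did not overlap for FOSL2 and FOSL1, 2 of the 9 genes, against 62.7% of all tested genes.

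FOSL1 (ENSG00000175592, chr11:65892049-65900573, minus strand) encodes FRA1, whose protein is stabilised by ERK phosphorylation. It had a normalized value of 2219 and 2283 in PBRT16 and 3616 and 2724 in PBRT15, against 3425 and 3834 in parental cells. PBRT16 lay below the other 4 libraries, and PBRT15 overlapped the parental cells. In PBRT16 it fell 1.61-fold, a log2 fold change of -0.69 ± 0.18 (SE, limma adjusted p of 0.0340). The call was lost without PBRT16 library 1 (0.120) or 2 (0.112) or parental library 1 (0.0878) or 2 (0.131). In PBRT15 the log2 fold change was -0.21, with a 95% interval of -0.66 to 0.25, and between the lines it was -0.48, with an interval of -0.93 to -0.03 and an adjusted p of 0.137.

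FOS (ENSG00000170345, chr14:75278826-75282230, plus strand) is the founding member of the family, a strong activator with a short-lived transcript. Its normalized value was 1211 and 3477 in PBRT16 and 2099 and 7656 in PBRT15, against 920 and 527 in parental cells. Every PBRT library was above both parental libraries, but the libraries of 1 line differed by 2.87-fold in PBRT16 and 3.65-fold in PBRT15. With that spread the log2 fold change was 1.56 ± 0.82 (SE, limma adjusted p of 0.187) in PBRT16 and 2.52 ± 0.82 (SE, 0.0632) in PBRT15. Without PBRT15 library 1, the lower one, the adjusted p in PBRT15 was 0.0430 and the log2 fold change 3.46. Between the lines the interval of the difference ran from -3.08 to 1.15, too wide to order them.

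The JUN family supplies the obligatory partner of every FOS-family protein. JUN (ENSG00000177606, chr1:58776845-58784048, minus strand, 1 exon), its main activator, had 3732 and 5703 normalized units in PBRT16 and 2790 and 5520 in PBRT15, against 1477 and 1880 in parental cells. All 4 PBRT libraries exceeded both parental ones, while the lines overlapped each other. The log2 fold change was 1.47 ± 0.40 (SE, limma adjusted p of 0.0408) in PBRT16 and 1.24 ± 0.40 (SE, 0.0634) in PBRT15. The PBRT16 call was lost without PBRT16 library 1 (0.0662) or 2 (0.156) or parental library 1 (0.156) or 2 (0.0944), and the PBRT15 value passed without PBRT15 library 1 (0.0334). Between the lines the difference was 0.23, with an interval of -0.80 to 1.27, so the call in 1 line does not set the lines apart.

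JUNB (ENSG00000171223, chr19:12791486-12793315, plus strand, 1 exon), which can activate or restrain JUN targets depending on its partner, had 361 and 615 normalized units in PBRT16 and 565 and 1794 in PBRT15, against 90.9 and 99.7 in parental cells. The lowest PBRT library was well above the highest parental one. It rose 4.91-fold in PBRT16, a log2 fold change of 2.30 ± 0.60 (SE, limma adjusted p of 0.0356), and 10.5-fold in PBRT15, 3.39 ± 0.60 (SE, 0.0115). The PBRT16 call was lost without PBRT16 library 1 (0.0697) or 2 (0.141) or parental library 1 (0.128) or 2 (0.109). The PBRT15 call was lost without parental library 1 (0.0592) or 2 (0.0518). HOOK2 on the opposite strand overlaps JUNB and ranged from 181 to 350, and the sources used here do not give the strand setting of the counting.

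JUND (ENSG00000130522, chr19:18279694-18281622, minus strand, 1 exon) is the JUN protein that resting cells express steadily. Its normalized value was 261 and 286 in PBRT16 and 161 and 314 in PBRT15, against 215 and 185 in parental cells. PBRT15 spanned the parental values. The log2 fold change was 0.45 (interval -0.41 to 1.31, limma adjusted p of 0.324) in PBRT16 and 0.17 (interval -0.69 to 1.03, adjusted p of 0.703) in PBRT15, where it was -0.31 without PBRT15 library 2.

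ATF3 (ENSG00000162772, chr1:212565334-212620777, plus strand) is a stress-induced partner of JUN proteins. It had 212 and 476 normalized units in PBRT16 and 310 and 902 in PBRT15, against 187 and 190 in parental cells. Each PBRT library was above both parental ones, library 1 of PBRT16 only slightly so. The log2 fold change was 0.75 ± 0.63 (SE, limma adjusted p of 0.381) in PBRT16 and 1.48 ± 0.63 (SE, 0.120) in PBRT15, where the adjusted p was 0.0484 without PBRT15 library 1.

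EGR1 (ENSG00000120738, chr5:138465479-138469303, plus strand) encodes a zinc finger factor, a classic ERK and SRF target. Its normalized value was 2191 and 6010 in PBRT16 and 1660 and 7602 in PBRT15, against 4356 and 5050 in parental cells. In each line 1 library lay below both parental libraries and the other above both. The log2 fold change was -0.37 (interval -2.57 to 1.83, limma adjusted p of 0.753) in PBRT16 and -0.40 (interval -2.60 to 1.80, adjusted p of 0.731) in PBRT15. In PBRT16 it became 0.36 without PBRT16 library 1 and -1.10 without PBRT16 library 2. In PBRT15 it became 0.70 without PBRT15 library 1 and -1.50 without PBRT15 library 2. It was also -1.50 in a fit without library 2 of both PBRT lines, chosen after seeing the data. That fit kept 1 library of each PBRT line, so the scatter inside PBRT15 did not enter it. No direction can be given for EGR1 from these libraries.

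IER3 (ENSG00000137331, chr6:30743199-30744548, minus strand, 2 exons), an early response gene linked to survival and ERK signaling, had 1721 and 2822 normalized units in PBRT16 and 2222 and 3267 in PBRT15, against 4693 and 5371 in parental cells. All PBRT libraries were below both parental libraries. It fell 2.28-fold in PBRT16, a log2 fold change of -1.19 ± 0.31 (SE, limma adjusted p of 0.0372), and the call was lost without PBRT16 library 1 (0.1145) or parental library 1 (0.105) or 2 (0.135). In PBRT15 the value was -0.90 ± 0.31 (SE, adjusted p of 0.0765). The overlapping antisense genes IER3-AS1 and HCG20 did not exceed 11.01.

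**Figure D2:**
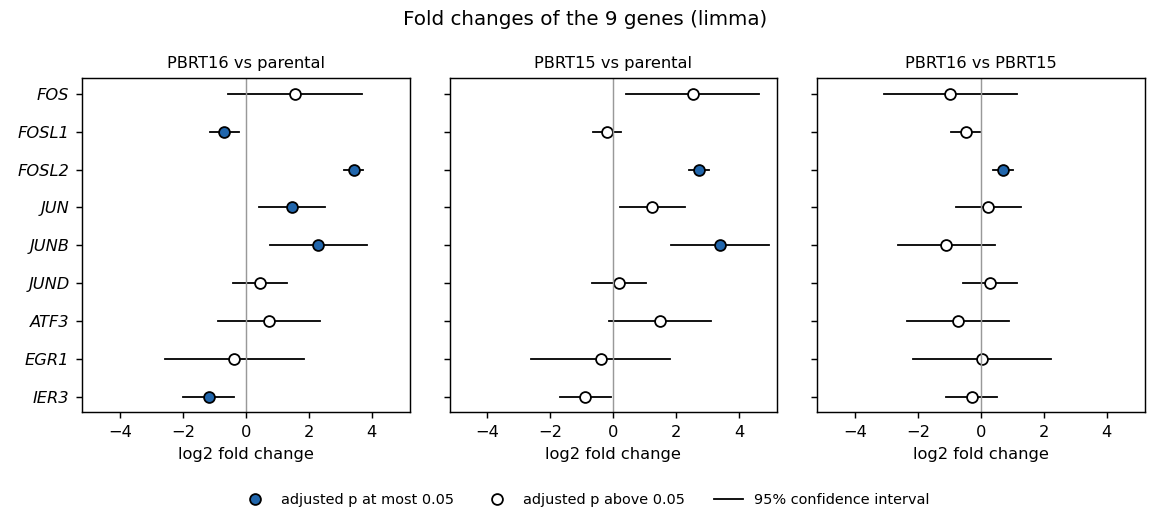
Log2 fold change (limma, on log2 of value + 1) of each gene in PBRT16 against parental cells, PBRT15 against parental cells and PBRT16 against PBRT15, with lines for the 95% confidence interval and filled points for an adjusted p of at most 0.05. FOSL2 had the narrowest intervals, and those of FOS and EGR1 were among the widest.

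The spread inside the resistant lines was itself patterned. Library 2 exceeded library 1 in 8 of the 9 genes in PBRT16 and in 8 of 9 in PBRT15, and in 6 of 9 in parental cells. Among all tested genes library 2 was higher in 50.9%, 50.6% and 49.6%. Library 2 was at least 2-fold higher for 3 of the 9 genes in PBRT16, for 4 in PBRT15 and for 0 in parental cells, where 3.06%, 4.66% and 2.72% of all genes were. FOS differed between libraries by 1.52 on the log2 scale in PBRT16 and 1.87 in PBRT15, and EGR1 by 1.46 and 2.19. Library 2 exceeded library 1 for ATF3 by 1.16 in PBRT16 and 1.54 in PBRT15 and for JUNB by 0.77 and 1.66. FOSL1 and FOSL2 stood out from this pattern, with differences between -0.41 and 0.04.

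**Figure D3:**
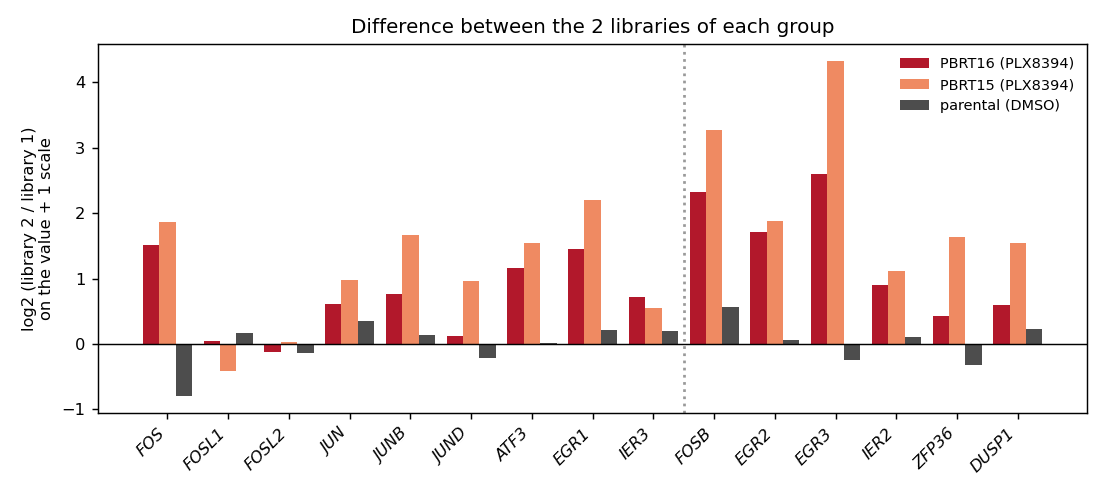
Log2 ratio of library 2 to library 1 within PBRT16, PBRT15 and parental cells for the 9 genes (left of the dotted line) and 6 other early response genes chosen for display after their values were seen. EGR1 reached 1.46 in PBRT16 and 2.19 in PBRT15, against 0.21 in parental cells.

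Library 2 also held higher values for most of the other immediate early genes. Of 31 tested genes of that list, 23 were higher in library 2 of PBRT16, 27 in library 2 of PBRT15 and 19 in library 2 of parental cells. FOSB, named here after its values were seen, had 327 and 1645 normalized units in PBRT16 and 587 and 5707 in PBRT15, against 286 and 424 in parental cells, and overlaps ERCC1 on the opposite strand (1416 to 3340). EGR3 had 0.795 and 9.91 in PBRT16 and 2.67 and 73.0 in PBRT15, against 1163 and 981 in parental cells, so it too was higher in library 2 of each line, at levels far below the parental ones. Of 13 ERK feedback genes, 13 were higher in library 2 of PBRT16 but 6 in library 2 of PBRT15. Heat shock genes, a sign of handling stress, were higher in library 2 for 6, 8 and 11 of 11 genes in PBRT16, PBRT15 and parental cells, and none was at least 2-fold higher. Mitochondrial transcripts took 4.43% and 4.53% of the total in PBRT16 and 4.09% and 4.10% in PBRT15, against 6.30% and 6.15% in parental cells. The labels give no batch, date or time of harvest, and the part of any of these in the library differences was not tested.

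The FOS-family pool differed in makeup as well as in level. Divided by transcript length in kb, FOSL1 made up 42.7% and 30.3% of the summed level of FOS, FOSB, FOSL1 and FOSL2 in PBRT16 and 54.4% and 21.6% in PBRT15, against 76.6% and 83.2% in parental cells. FOSL2 made up 35.5% and 22.5% in PBRT16 and 16.1% and 8.72% in PBRT15, against 3.85% and 3.40% in parental cells. The share of FOSL1 was thus lower, and that of FOSL2 higher, in every PBRT library than in either parental library. The FOSL1 level per kb was 1304 and 1341 in PBRT16 and 2125 and 1601 in PBRT15, against 2012 and 2253 in parental cells. In PBRT15 library 1 the lower share thus came from a larger family sum, 3908 against 2626 and 2708 in parental cells. The family sum was also larger in the other PBRT libraries, 7396 in PBRT15 library 2 and 3050 and 4423 in PBRT16. In those the FOSL1 level was lower as well, so both entered the share. FOS itself took 18.9% and 37.4% in PBRT16 and 25.5% and 49.2% in PBRT15, against 16.6% and 9.25% in parental cells. In the JUN family, JUN was the leading transcript in all 6 libraries, at 59.7% to 79.3%. JUNB made up 13.3% and 15.0% in PBRT16 and 24.7% and 34.5% in PBRT15, against 8.08% and 7.49% in parental cells, and JUND 9.17% and 6.63% in PBRT16 and 6.70% and 5.73% in PBRT15, against 18.1% and 13.2% in parental cells. These shares are descriptions, since with 2 libraries a group a two-sided exact permutation test cannot go below 1 in 3. They assume values not already divided by length, and the sources used here do not name the normalization.

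**Figure D4:**
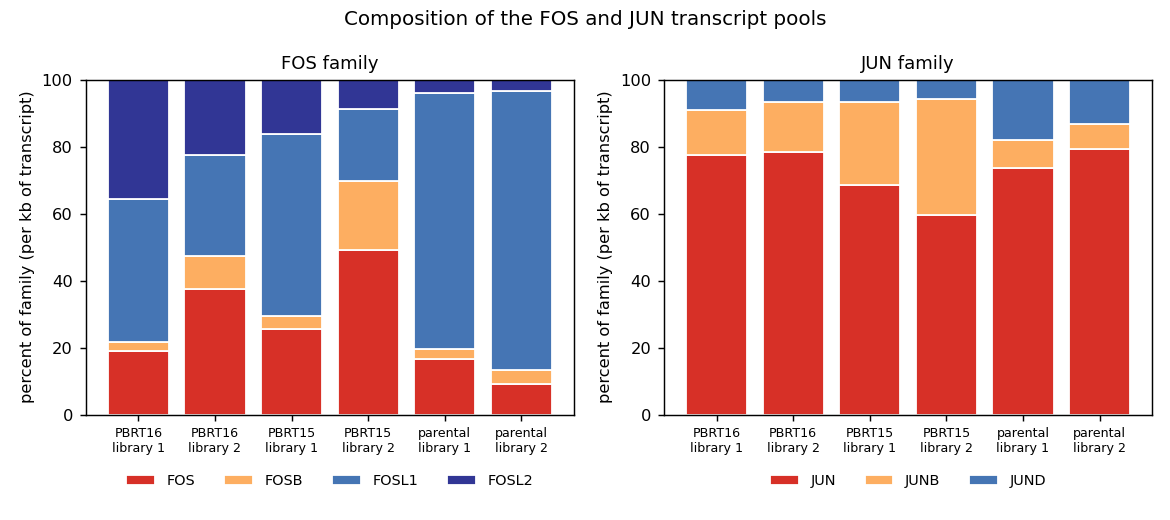
Share (percent, values per kb of transcript) of each gene in the summed level of the FOS family (left) and JUN family (right) in each library. FOSL1 fills 76.6% and 83.2% of the FOS-family bars in parental cells and 21.6% to 54.4% in the PBRT lines.

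Of the further AP-1 superfamily relatives, 5 of 12 tested genes were called higher and 1 lower in PBRT16, and 4 higher and 1 lower in PBRT15, with median log2 fold changes of 0.69 in PBRT16 and 0.28 in PBRT15. For this and the lists below, the shares of all tested genes were 21.1% higher and 19% lower in PBRT16 and 21.6% higher and 19.5% lower in PBRT15, with medians near 0. In all, 6 of 12 relatives were called in PBRT16 and 5 of 12 in PBRT15, where 40.1% and 41.1% of all genes were. JDP2, which pairs with JUN proteins and represses AP-1 targets, had 559 and 535 normalized units in PBRT16 and 435 and 545 in PBRT15, against 101 and 83.6 in parental cells. It rose, with a log2 fold change of 2.56 in PBRT16 (limma adjusted p of 0.000748) and 2.39 in PBRT15 (0.000910). CREB5, a relative of ATF2, fell with -1.56 in PBRT16 (0.0151) and -3.36 in PBRT15 (0.00166). JDP2, like FOSL2, lay well apart from parental cells with its libraries close together.

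Of the other immediate early genes, 6 of 31 were called higher and 11 lower in PBRT16, and 10 higher and 8 lower in PBRT15, with medians of -0.19 and 0.44, so that the 6 called higher in PBRT16 were near the 21.1% of all genes. EGR2, a close relative of EGR1, had 9.003 and 31.6 normalized units in PBRT16 and 2.87 and 13.2 in PBRT15, against 220 and 230 in parental cells. Unlike EGR1, it lay below both parental libraries in each PBRT library, as did EGR3. EGR2 fell with a log2 fold change of -3.64 in PBRT16 (limma adjusted p of 0.0234) and -4.93 in PBRT15 (0.00966), and EGR3 with -7.92 in PBRT16 (0.0181) and -6.02 in PBRT15 (0.0388). DUSP1, a phosphatase that inactivates JNK and p38, had 2711 and 4110 in PBRT16 and 1249 and 3634 in PBRT15, against 251 and 294 in parental cells, and rose with 3.62 in PBRT16 (0.00729) and 2.97 in PBRT15 (0.0129). CCN1, a secreted matrix protein, rose with 3.61 in PBRT16 (0.000368) and 3.74 in PBRT15 (0.000332).

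**Figure D5:**
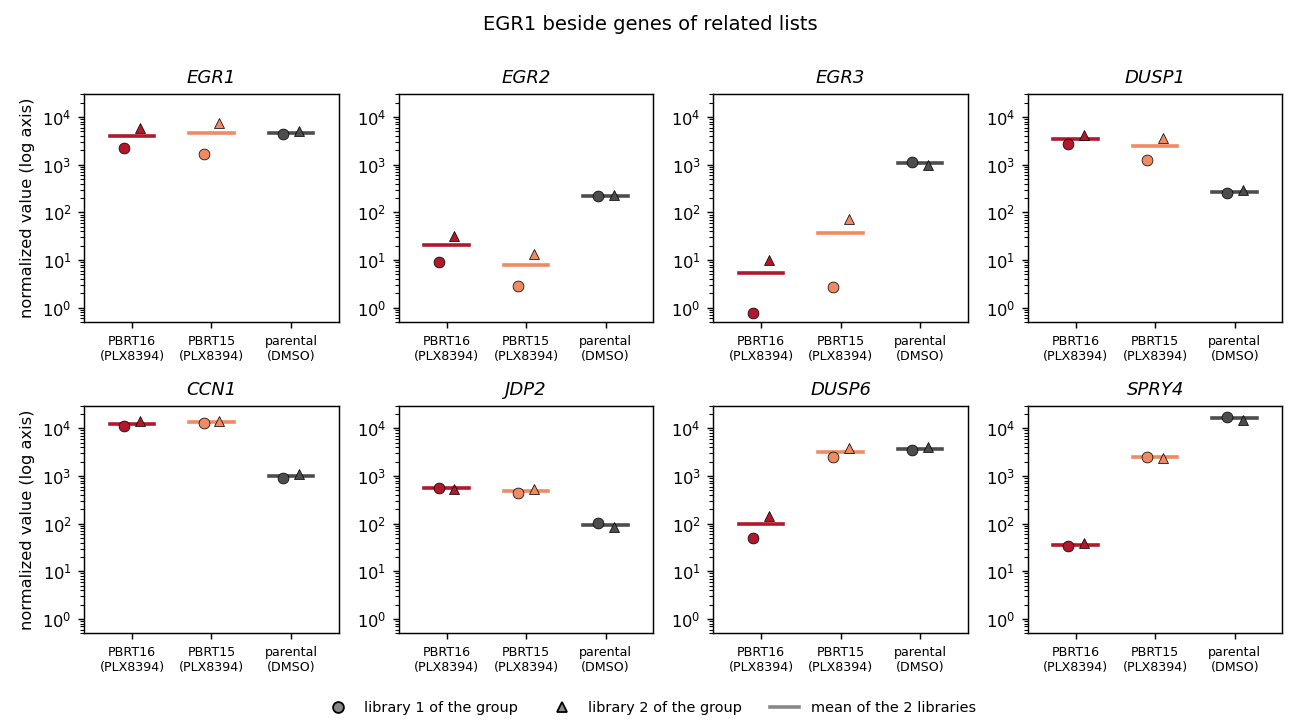
Normalized values (log axes) of EGR1 and 7 genes of related lists in each library of PBRT16, PBRT15 and parental cells, with circles for library 1, triangles for library 2 and bars for means. EGR2 and EGR3 lay far below the parental libraries in both lines, EGR1 spanned them, and DUSP6 was low in PBRT16 (49.8 and 145) but not in PBRT15 (2494 and 3897).

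The ERK feedback genes, whose transcripts follow ERK output, were mostly lower in both lines. Of 13 tested, 12 were called lower and 0 higher in PBRT16, and 7 lower and 1 higher in PBRT15, with medians of -2.59 and -0.88. Between the lines, 11 were called lower in PBRT16 than in PBRT15 and 0 higher. Of all tested genes, 8.28% were called lower and 7.5% higher in that contrast. DUSP6, an ERK phosphatase, had 49.8 and 145 normalized units in PBRT16 and 2494 and 3897 in PBRT15, against 3521 and 3998 in parental cells, and was 36.2-fold lower in PBRT16 than in PBRT15 (limma adjusted p of 0.00827). SPRY4, an inhibitor of receptor signaling to ERK, had 33.5 and 39.2 in PBRT16 and 2525 and 2349 in PBRT15, against 17224 and 14982 in parental cells. In the same contrast EGR1 differed by 0.03 on the log2 scale, with an interval of -2.17 to 2.23, and FOS by -0.97. ELK1, the ternary complex factor, had 625 and 729 in PBRT16 and 726 and 775 in PBRT15, against 1133 and 1106 in parental cells, and whether reads of the GAL4-ELK1 reporter enter this value was not tested. Of the 14 SRF and ternary complex regulators, 4 were called higher and 6 lower in PBRT16, and 3 higher and 6 lower in PBRT15, where 21.1% and 19% of all genes were called higher and lower in PBRT16 and 21.6% and 19.5% in PBRT15.

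Of 13 JNK and p38 kinases, which phosphorylate JUN and ATF proteins, 3 were called higher and 2 lower in PBRT16, and 4 higher and 1 lower in PBRT15, with medians of 0.10 and 0.28. These 5 of 13 in each line were near the 40.1% and 41.1% of all genes called. Of 11 integrated stress response genes, which include activators of ATF3, 3 were called higher and 0 lower in PBRT16, and 3 higher and 1 lower in PBRT15. These 3 of 11 in PBRT16 and 4 of 11 in PBRT15 were below the 40.1% and 41.1% of all genes called, and the medians were -0.02 and 0.54. CHAC1, an ATF4 target, rose with a log2 fold change of 1.76 in PBRT16 (limma adjusted p of 0.0157) and 2.58 in PBRT15 (0.00509). ASNS, of the same list, fell with -1.39 in PBRT15 (limma adjusted p of 0.0207) and was not called in PBRT16. Genes known as AP-1 targets did not share 1 direction: of 14 tested, 5 were called higher and 7 lower in PBRT16, and 5 higher and 5 lower in PBRT15, where 21.1% and 19% of all genes were called higher and lower in PBRT16 and 21.6% and 19.5% in PBRT15. IL6, a cytokine, had 2832 and 3408 normalized units in PBRT16 and 2109 and 2855 in PBRT15, against 40.6 and 54.6 in parental cells, whereas LIF, a related cytokine, had 1129 and 1317 in PBRT16 and 1091 and 2756 in PBRT15, against 11968 and 13775 in parental cells. Among 8 co-repressors and targets of EGR1, 4 were called higher and 3 lower in PBRT16, and 4 higher and 2 lower in PBRT15. NAB1, which binds and restrains EGR proteins, fell with -1.46 in PBRT16 (0.00377) and -1.07 in PBRT15 (0.00905), and NAB2, its relative, with -0.92 in PBRT16 (0.00458) and -0.53 in PBRT15 (0.0234).

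The genes whose pattern over the 6 libraries lay closest to FOS, FOSL1 and EGR1 were sought by Euclidean distance of centred log2 values. The nearest to FOSL1 were ABCF2-H2BK1 (0.13), CENPL (0.15) and NOP16 (0.15). The values were not scaled, so distances tend to be larger for genes that vary more. They are not to be compared between FOSL1, EGR1 and FOS. The nearest to EGR1 were KCNAB1 (0.52), BCAS3 (0.60) and ENSG00000272153 (0.68), and the nearest to FOS were PMFBP1 (0.84), NIPSNAP3B (0.98) and FAM227A (0.99). Several of the genes nearest to FOS and EGR1 were low. PMFBP1 had 0.813 to 17.7 normalized units, NIPSNAP3B 5.11 to 51.9 and FAM227A 6.02 to 117. ENSG00000272153 had 3.07 to 13.3, KCNAB1 13.8 to 52.5 and BCAS3 74.0 to 260.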

How the data were processed

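The data were 6 RNA-seq libraries, with 2 per group: PBRT16 in PLX8394, PBRT15 in PLX8394 and parental cells in DMSO. By the paper's methods, RSEM gave gene-level estimates on GRCh38 and GENCODE, and the submitters' processing notes name Picard, STAR 2.6.1a, RSEM and DESeq2. What the authors deposited is a normalized signal without whole counts: no step common to a library returned whole reads (10.7% to 44.1% of low values lay within 0.02 of a multiple of the commonest one). The sources used here do not name the normalization behind this signal, so depth in reads is unknown, single genes may be shifted, and count models were left aside.

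IDs were matched without version to GENCODE v44 (60357 of 60617), with 45 pseudoautosomal copies set aside. Tested genes reached 10, after scaling to the median library total, in 2 or more libraries and summed to 15 or more. A 3-group model of log2(value + 1) over the 6 libraries was fitted in limma 3.58.1 (R 4.3.3), with 3 residual and 1.89 prior degrees of freedom, and adjusted p-values by Benjamini-Hochberg over 16555 genes. Fold changes on this scale understate the change of low genes. Family shares used the length of the MANE Select transcript. Promoter windows came from RefSeq, and motifs were matched on both strands.

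The genes and lists were chosen with earlier results of these data known. Besides the 9 genes, SOX10, ELK1 and the nearest patterns, the 3 largest rises and falls among called genes of each list could be named, and other genes are named after their values were seen. The values of 1 such gene are not reported here. Marker lists of immune, endothelial and keratinocyte cells had 1, 3 and 3 tested genes. Called in PBRT16 were 1, 0 and 0 higher and 0, 0 and 1 lower, and in PBRT15 1, 1 and 0 higher and 0, 2 and 1 lower. Of all tested genes, 21.1% were called higher and 19% lower in PBRT16, and 21.6% and 19.5% in PBRT15. The steps were tested on simulated data, with 200 genes changed in PBRT16 against parental cells. They found 0% of 1.5-fold, 19.6% of 2-fold, 60% of 4-fold and 76.8% of 8-fold changes. The simulation changed fewer genes than were called in the data, so these shares do not carry over directly. Alternatives were other scalings, pseudocounts of 0.5 and 5, other filters, a prior spread that follows expression, 4 libraries in the fit, a replicate block and leaving out libraries.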

Additional observations from a re-analysis of the deposited data

Results flagged for a closer look

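FOSL2 differed in its rise over parental cells between the resistant lines: the log2 fold change was 0.70 larger in PBRT16 than in PBRT15, and the limma test of that difference gave an adjusted p of 0.0260. The normalized value was 7277 and 6666 in PBRT16, against 4231 and 4331 in PBRT15. All 4 libraries stood above the 679 and 619 of parental cells. The call was lost in 8 of 17 alternatives, with adjusted p-values of up to 0.250, among them the fits without PBRT16 library 1 (0.116) or 2 (0.0890), PBRT15 library 1 (0.101) or 2 (0.0845) and parental library 2 (0.0501).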

How the results depend on the processing

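FOSL2 kept its call against parental cells in both lines under all 17 alternatives, and FOSL1, FOS, JUN, JUNB, ATF3 and IER3 kept their direction against parental cells under the same 17. Leaving out 1 library gave 1 to 3 genes called higher and 0 to 2 lower in PBRT16, 1 to 5 higher in PBRT15, and 0 to 1 higher between the lines. Calls over all genes then ranged from 3748 to 6222 in PBRT16, 3847 to 5843 in PBRT15 and 780 to 1710 between the lines, against 6641, 6796 and 2612. With 1 library left in a group, it is assumed to vary like the other groups. The log2 fold change of EGR1 ranged from -1.10 to 0.36 in PBRT16, -1.50 to 0.70 in PBRT15 and -1.07 to 1.13 between the lines, and that of JUND from -0.31 to 0.65 in PBRT15. Between the lines JUND ranged from -0.20 to 0.76, JUN from -0.26 to 0.73, ATF3 from -1.50 to 0.037 and IER3 from -0.65 to 0.067.

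Without the filter, 1 gene was called higher and 0 lower in PBRT16 and 0 higher between the lines, where 1390 genes were called in all. In PBRT15, 4 genes were called higher with a pseudocount of 5 and with a scaled minimum of 50, and 5 higher and 1 lower with a prior spread that follows expression, which also called 1 lower between the lines, FOSL1 (adjusted p of 0.0480). Chosen after seeing the data, fits without library 2 of both PBRT lines gave 1 lower in PBRT16, 2 lower in PBRT15 and 0 higher between the lines, with 2606, 2793 and 0 calls over all genes. Fits without library 1 of both lines gave 0 lower in PBRT16, 5 higher in PBRT15 and 0 higher between the lines, with 2723, 2757 and 0 calls. Without library 1 of both lines EGR1 stood at 0.36, 0.70 and -0.34 in these 3 comparisons and JUND between the lines at -0.14. Without library 2 of both lines JUND in PBRT15 stood at -0.31 and EGR1 in PBRT15 at -1.50. The cause was not tested, beyond fewer libraries in these fits and more genes tested without the filter. Of 1428 alternative counts of list members, 318 moved by more than 1.5 times.

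With the replicate number as a block, 1 gene was lower in PBRT16, with FOSL1 lost (adjusted p of 0.0591), and 1 was lower in PBRT15, with IER3 gained (0.0276) beside JUN (0.0181). The labels do not tell whether equal numbers pair the libraries. Over all 16555 tested genes, deviations of equal numbers correlated at 0.14 between PBRT16 and PBRT15. The correlation was 0.04 between PBRT16 and parental cells and 0.02 between PBRT15 and parental cells. Such values over all genes cannot show whether a smaller set of genes was shifted alike, so pairing stays undecided. With 2 libraries a group and depth unknown, a gene that missed the threshold is not shown to be unchanged.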
